A study of Mus musculus with 9 samples.

Results

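Chemoattractant receptors are the surface proteins through which phagocytes sense chemokines, complement fragments and lipid mediators. The 9 genes described here were taken from the deposited table by symbol and are 9 of the 28764 symbols it lists. The list of symbols was chosen with earlier results of these data known. They comprise the chemokine receptor genes Ccr2, Cx3cr1, Ccr1 and Cxcr4, the atypical receptor gene Ccrl2, the complement receptor genes C3ar1 and C5ar1, the leukotriene B4 receptor gene Ltb4r1 and the platelet-activating factor receptor gene Ptafr. Their RNA was measured in sorted phagocytes from the peritoneal wall of mice, the connective tissue and muscle that line the abdominal cavity. All cells came from reporter mice, Cx3cr1gfp/+ Ccr2rfp/+, the first-generation offspring of a cross of 2 Jackson Laboratories lines. Every mouse, and so every population, carried a green reporter in 1 copy of Cx3cr1 and a red reporter in 1 copy of Ccr2. Age and sex are not given in the labels used.

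Mice received 50 µg of fluorescent dextran into a vein 1 day before, which interstitial phagocytes take up, and were perfused to wash out blood leukocytes. After digestion of the tissue for 20 minutes at 37 °C, CD11b-positive, Ly6G-negative cells were sorted into 3 populations, each with 3 libraries that carry the sort labels 1, 2A and 2B. Double-negative (DN) cells had neither reporter, were dextran-positive and lacked surface MHC class II, and formed 85 to 90% of the sorting gate; the labels call them most of the sessile resident tissue macrophages. CX3CR1-GFP cells, 0.5 to 1.5% of the gate, and CCR2-RFP cells, 10 to 15%, were both MHC class II-positive, and the labels call them sessile resident macrophages and migratory tissue monocytes. The sorts were read as 3 animals, each giving 1 library per population, because the series' design says that 3 mice were carried through as 3 replicates.

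Chemoattractant receptors span the membrane repeatedly and signal through heterotrimeric G proteins, mostly of the Gi class, to phospholipase C, PI3 kinase gamma and the Rac GTPases that drive actin at the front of a moving cell. Arrestins and receptor kinases then shut the receptor off, and RGS proteins turn off the G protein. In tissue phagocytes the family is best known for bringing monocytes out of blood and bone marrow through Ccr2, for the patrolling monocytes and tissue macrophages marked by Cx3cr1, and for the fast response to injury through C5a, leukotriene B4 and platelet-activating factor.

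Among the 7 receptors not used for sorting, 4 differed between CCR2-RFP and DN cells, and the stretch before the RefSeq start of each of these 4 is printed to show the promoter DNA of the messages that differed. Each is the sense strand from 124 to 5 bases before the RefSeq transcription start (GRCm38.p6), overlaps no annotated GENCODE M21 exon, and has in capitals any match to the motifs searched. Ltb4r1 lies at chr14:55765838-55765957 on the plus strand, Ccrl2 at chr9:111057523-111057642, C3ar1 at chr6:122856162-122856281 and C5ar1 at chr7:16259343-16259462, all 3 on the minus strand. The C5ar1 window lies inside the GENCODE M21 span of the gene, which begins farther upstream, and is intronic there.
Ltb4r1: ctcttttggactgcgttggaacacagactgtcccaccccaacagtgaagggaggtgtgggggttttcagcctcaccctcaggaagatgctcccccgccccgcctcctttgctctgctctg
Ccrl2: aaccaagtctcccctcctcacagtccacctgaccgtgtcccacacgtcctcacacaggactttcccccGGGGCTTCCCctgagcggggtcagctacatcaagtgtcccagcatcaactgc
C3ar1: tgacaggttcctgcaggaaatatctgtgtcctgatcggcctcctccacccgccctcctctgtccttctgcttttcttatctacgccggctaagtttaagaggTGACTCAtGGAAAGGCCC
C5ar1: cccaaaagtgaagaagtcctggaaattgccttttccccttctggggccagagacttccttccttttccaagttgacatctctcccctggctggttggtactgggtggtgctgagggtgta

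On both strands, the letters searched were TGANTCA (AP-1), GAGGAAGT (PU.1), TTGCNNAA (C/EBP), GGG and CC on either side of NNTTN (an NF-kB type) and TGCTGAC (a MAF core). Over 32851 RefSeq windows of the same 120 bases, these were found in 3.52%, 1.29%, 4.21%, 2.05% and 1.99%. The Ccrl2 window held the NF-kB letters GGGGCTTCCC, beginning 56 bases before the start. The C3ar1 window held the AP-1 letters TGACTCA, beginning 22 bases before the start, directly followed after 1 base by an NF-kB match on the opposite strand, GGAAAGGCCC. Neither the Ltb4r1 nor the C5ar1 window held any of the 5 motifs. These are matches of letters and describe the windows only. RefSeq gives 3 starts for Ccrl2, and the most upstream was used.

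Levels are in TPM, a share of all transcripts in a library corrected for transcript length, so levels of different genes can be set side by side. Differences are log2 differences of TPM + 1 from a limma fit to all 9 libraries, and a gene was called at a Benjamini-Hochberg adjusted p below 0.05 over the 10136 genes that reached 1 TPM in 3 or more libraries. All 9 receptors passed that filter on low values, Cx3cr1 only through the CX3CR1-GFP libraries and Ltb4r1 only through the CCR2-RFP libraries. In this scale the change of a gene near 0 TPM is understated.

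The 2 reporter genes serve to check the sort and are not findings. Ccr2, the receptor of the monocyte chemoattractant proteins, had levels of 2.12, 1.65 and 4.62 TPM in DN sorts 1, 2A and 2B, and of 4.29, 5.03 and 6.68 TPM in the CX3CR1-GFP ones. In CCR2-RFP libraries it stood at 95.4, 111 and 115 TPM. Cx3cr1, whose ligand is fractalkine, reached 6.51, 16.4 and 4.13 TPM in CX3CR1-GFP cells and was listed at 0 in the other 6 libraries. Each message was therefore highest in the population named for it, as the sample titles and the column headings name it. The description field names the other reporter for the 6 reporter-positive libraries, and was not used. Ccr2 lies at chr9:124101950-124113557 (GRCm38, plus strand) and shares 3.48% of its 31-base words with other genes, so a small part of its reads could be assigned elsewhere. The Cx3cr1 span, chr9:119901616-120069879 on the minus strand, overlaps 9 other genes and shares 78 exon bases with an antisense transcript, and the counting strand is not stated in any source used here.

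**Figure D1:**
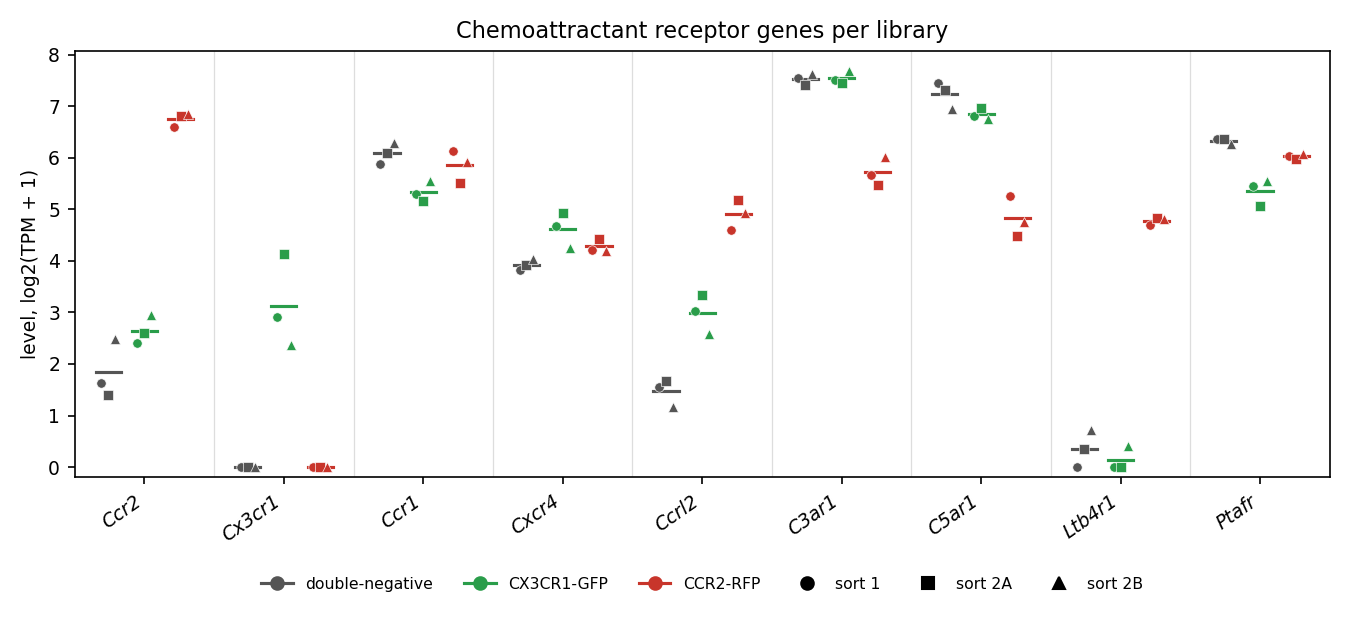
Level of each of the 9 receptor genes in every library as log2(TPM + 1), with grey, green and red for DN, CX3CR1-GFP and CCR2-RFP cells, a marker shape for each sort and a bar for the mean of 3 libraries. C3ar1 and C5ar1 sit lowest in CCR2-RFP cells, while Ltb4r1 and Ccrl2 sit highest there.

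Libraries differed in what else they held. Transcripts of 4 skeletal muscle markers (Acta1, Ckm, Mylpf, Myh4) summed to 147 to 210 TPM in DN libraries, but reached 1028 TPM in CX3CR1-GFP 2A and 617 TPM in CCR2-RFP 2A, against minima of 117 and 23.4 TPM in those populations. The 6 macrophage markers summed to 504 to 583 TPM in DN, 473 to 517 in CX3CR1-GFP and 204 to 250 TPM in CCR2-RFP libraries, so the label of macrophages was met by its defining markers. In CCR2-RFP libraries the monocyte genes other than the gate gene, Ly6c2, Plac8 and Vcan, stayed at or below 1.96 TPM, a limit on the monocyte label. The 5 dendritic cell markers summed to 8.54 to 15.3 TPM there, above the 2.07 to 4.53 TPM of the other libraries, and Clec9a was 3.12, 6.12 and 6.47 TPM. Flt3 and Xcr1 also had their highest means in CCR2-RFP cells. Zbtb46 went the other way, with a mean of 2.07 TPM against 2.425 in DN and 2.15 in CX3CR1-GFP cells. Ccr7 stayed below 1 TPM in every library. The 5 mast cell markers summed to 5.42 to 30.96 TPM there, against 0.732 to 6.55 TPM in DN and 0.0816 to 3.79 TPM in CX3CR1-GFP libraries, with Kit and Fcer1a below 1 TPM in every library. Neutrophil markers summed to 6.83 to 17.9, 3.33 to 24.1 and 1.26 to 2.11 TPM in DN, CX3CR1-GFP and CCR2-RFP libraries, with Mmp8 and Cxcr2 below 1 TPM in every library. Of 16 immediate-early genes, which tissue digestion can induce, 3 were called higher and 4 lower in CCR2-RFP than in DN cells, beside 14.9% and 9.88% of all genes. None of the 16 was called by limma between CX3CR1-GFP and DN cells, beside 2.77% of all genes, and 2 had an unadjusted p below 0.05. In CX3CR1-GFP against CCR2-RFP cells 5 of the 16 were called higher and 2 lower, beside 8.96% and 17.3% of all genes. Under the 3 other scalings 7 to 11 were called higher and 0 lower. Of 6 mitochondrially encoded mRNAs tested, which vary with RNA quality and the state of the cells, 5 were called lower in CCR2-RFP than in DN cells (median log2 difference -0.89), beside 9.88% of all genes. All 6 were called lower there under the 3 other scalings. None of the 6 was called by limma in CX3CR1-GFP against DN or CCR2-RFP cells, where 1 and 2 had an unadjusted p below 0.05, but 3 to 6 were higher than in CCR2-RFP cells under the other scalings. The part of other cells, digestion and RNA quality in the receptor results was not tested, and in bulk samples fewer cells of a type and less RNA per cell cannot be told apart.

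Of the 7 receptors outside the gate, 4 were called between CCR2-RFP and DN cells, Ltb4r1 and Ccrl2 higher and C3ar1 and C5ar1 lower, in a comparison that called 24.8% of all genes tested. Between CX3CR1-GFP and DN cells 2 of 7 were called, Ccrl2 higher and Ptafr lower, against 2.77% of all genes. Between CX3CR1-GFP and CCR2-RFP cells 5 of 7 were called, C3ar1 and C5ar1 higher and Ccrl2, Ltb4r1 and Ptafr lower, against 26.3% of all genes. Each pair of these comparisons shares a population, so they are not independent of each other. Ltb4r1, counted among the calls of the first and last, passed the filter only through the CCR2-RFP libraries, where it is high. By direction, 14.9% of all genes were called higher and 9.88% lower in the first comparison, 1.16% and 1.61% in the second, and 8.96% and 17.3% in the last. These splits depended on scaling: the higher share of called genes was 60.2%, 42.0% and 34.1%, and went to 45.6 to 49.7%, 50.9 to 54.6% and 48.9 to 57.9% under 3 other scalings. Over the 9 receptors, the 2 gate genes included, the median log2 difference was 0, 0.03 and -0.52 in the order of the comparisons. Over all genes it was 0.09, -0.03 and -0.11. The median of 0 is the value of the gate gene Cx3cr1, listed at 0 TPM in both populations compared. These medians therefore do not summarize the 7 receptors outside the gate.

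C3ar1 encodes the receptor for C3a, a fragment released when complement C3 is cleaved (chr6:122847138-122856161, minus strand). It was at 187, 170 and 195 TPM in DN sorts 1, 2A and 2B, 182, 175 and 206 TPM in CX3CR1-GFP and 49.9, 43.5 and 63.7 TPM in CCR2-RFP libraries. The CCR2-RFP libraries were all below the 6 others, and the other 2 populations overlapped. The mean was 52.4 ± 10.3 TPM (SD, n = 3) in CCR2-RFP against 184 ± 13.0 TPM in DN cells, a log2 difference of -1.81 (SE 0.157, limma adjusted p = 2.18e-05). Against CCR2-RFP cells, the 188 ± 16.0 TPM of CX3CR1-GFP cells gave a difference of 1.83 (adjusted p = 2.59e-05). Between CX3CR1-GFP and DN cells the difference was 0.03, with a 95% interval of -0.32 to 0.38 and an adjusted p = 0.956. It was the receptor with the highest level in both sessile populations.

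C5ar1, the main receptor for the potent attractant C5a (chr7:16246743-16259540, minus strand), was also lowest in CCR2-RFP cells, with its highest mean in DN cells. Its levels were 173, 157 and 122 TPM in DN, 111, 124 and 106 TPM in CX3CR1-GFP and 37.2, 21.3 and 26.1 TPM in CCR2-RFP libraries. Again every CCR2-RFP library lay below the 6 others. It was lower in CCR2-RFP than in DN cells by a log2 difference of -2.40 (SE 0.207, limma adjusted p = 2.09e-05), with means of 28.2 ± 8.16 and 151 ± 26.1 TPM. CX3CR1-GFP cells, at 114 ± 9.10 TPM, were higher than CCR2-RFP cells by 2.01 (adjusted p = 7.09e-05). Against DN cells their difference of -0.39 did not pass (95% interval -0.85 to 0.07, adjusted p = 0.416), and their levels overlapped. The sum of macrophage markers moved with both complement receptors, lower in all CCR2-RFP libraries. The marker Cd68 did not follow the sum. Its CCR2-RFP libraries, at 55.8 to 86.5 TPM, overlapped those of CX3CR1-GFP (65.8 to 79.6 TPM) and DN cells (85.9 to 114 TPM).

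Ltb4r1, the high-affinity leukotriene B4 receptor that leads neutrophils and other myeloid cells to sites of injury (chr14:55765962-55768494, plus strand), was near 0 TPM outside the CCR2-RFP libraries. In these it was at 24.8, 27.3 and 27.2 TPM. It was listed at 0, 0.28 and 0.65 TPM in DN libraries and at 0, 0 and 0.33 TPM in CX3CR1-GFP libraries. The CCR2-RFP libraries, at 26.4 ± 1.39 TPM, varied little among themselves and stood above all others. The log2 difference was 4.42 against DN cells (SE 0.23, limma adjusted p = 2.18e-06), and CX3CR1-GFP cells were lower than CCR2-RFP cells by -4.64 (adjusted p = 2.57e-06). With the receptor near 0 in the compared cells, this size rests on the added constant: against DN cells it was 2.57 with 5 TPM added and 6.45 with 0.1 TPM added. Ltb4r1 passed the filter only through the CCR2-RFP libraries, where it is high, so its p-values are no independent support for that difference. The gene shares no 31-base word with another gene of the annotation. CX3CR1-GFP and DN cells differed by -0.22 (95% interval -0.73 to 0.29, adjusted p = 0.719).

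Ptafr, the receptor for platelet-activating factor, a phospholipid that recruits and activates leukocytes (chr4:132564067-132582683, plus strand), was lowest in CX3CR1-GFP cells. It was at 81.5, 81.1 and 75.8 TPM in DN, 42.9, 32.6 and 46.1 TPM in CX3CR1-GFP and 64.1, 61.7 and 66.7 TPM in CCR2-RFP libraries. The libraries of the 3 populations did not overlap. CX3CR1-GFP cells were lower than DN cells by a log2 difference of -0.97 (SE 0.148, limma adjusted p = 0.00688), from 79.5 ± 3.21 to 40.5 ± 7.05 TPM. They were also lower than CCR2-RFP cells (64.2 ± 2.50 TPM) by -0.66 (adjusted p = 0.00779). That call was lost under 3 other scalings, with -0.45 (adjusted p = 0.0605) under median-of-ratios scaling, -0.36 (0.105) when the row Siglece, the ribosomal RNA row Rn18s and the mitochondrial and ribosomal protein genes were left out of the total and -0.30 (0.227) under quantile normalization. CCR2-RFP against DN cells gave -0.30 (adjusted p = 0.173), and was called at -0.51 (0.0323) and -0.56 (0.0321) under the last 2 scalings. Ptafr shares 3.08% of its 31-base words with other genes.

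Ccrl2 encodes an atypical receptor that binds chemerin at the cell surface without signalling itself, and so presents it to cells carrying Cmklr1 (chr9:111054486-111057519, minus strand). It was at 1.95, 2.19 and 1.26 TPM in DN, 7.16, 9.07 and 4.97 TPM in CX3CR1-GFP and 23.1, 35.4 and 29.6 TPM in CCR2-RFP libraries. No library of any population reached the range of another, so the levels formed 3 steps. Against DN cells (1.8 ± 0.48 TPM) the log2 difference was 1.51 in CX3CR1-GFP cells (SE 0.245, limma adjusted p = 0.0099) and 3.43 in CCR2-RFP cells (SE 0.245, adjusted p = 7.27e-06). CX3CR1-GFP and CCR2-RFP cells differed by -1.92 (adjusted p = 0.000275). Of the 7 receptors outside the gate, it alone was called in all 3 comparisons of the TPM as deposited.

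Ccr1, a receptor for Ccl3, Ccl6, Ccl9 and related chemokines (chr9:123962124-123968692, minus strand), was called in no comparison. Its levels were 58.0, 67.4 and 77.3 TPM in DN, 38.6, 34.8 and 45.6 TPM in CX3CR1-GFP and 69.5, 44.7 and 59.1 TPM in CCR2-RFP libraries. CX3CR1-GFP libraries lay below every DN library and overlapped with CCR2-RFP 2A. Their difference from DN cells was -0.75 (SE 0.189, limma adjusted p = 0.0727) and from CCR2-RFP cells -0.52 (adjusted p = 0.0696). The 1 library CCR2-RFP 2A bore on both: without it the adjusted p was 0.0476 and 0.0272, the latter with a difference of -0.69. Under the 3 other scalings the difference from CCR2-RFP cells shrank to between -0.30 and -0.13 (adjusted p = 0.313 to 0.683). CCR2-RFP against DN cells gave -0.24 (95% interval -0.66 to 0.19, adjusted p = 0.429).

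Cxcr4, the receptor for Cxcl12 that holds leukocytes in bone marrow and tissue niches (chr1:128588199-128592293, minus strand), did not pass either. It was at 13.2, 14.1 and 15.5 TPM in DN, 24.5, 29.5 and 18.0 TPM in CX3CR1-GFP and 17.6, 20.6 and 17.3 TPM in CCR2-RFP libraries. DN libraries lay below all 6 others, which overlapped with each other. CX3CR1-GFP against DN cells gave 0.69 (SE 0.187, limma adjusted p = 0.095), and 0.87 (0.0334) without CX3CR1-GFP 2B. CCR2-RFP against DN cells gave 0.35 (adjusted p = 0.216). CX3CR1-GFP against CCR2-RFP cells gave 0.34 (adjusted p = 0.221), but 0.63 (0.0337) and 0.64 (0.0306) with those same rows left out of the total and under quantile normalization.

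**Figure D2:**
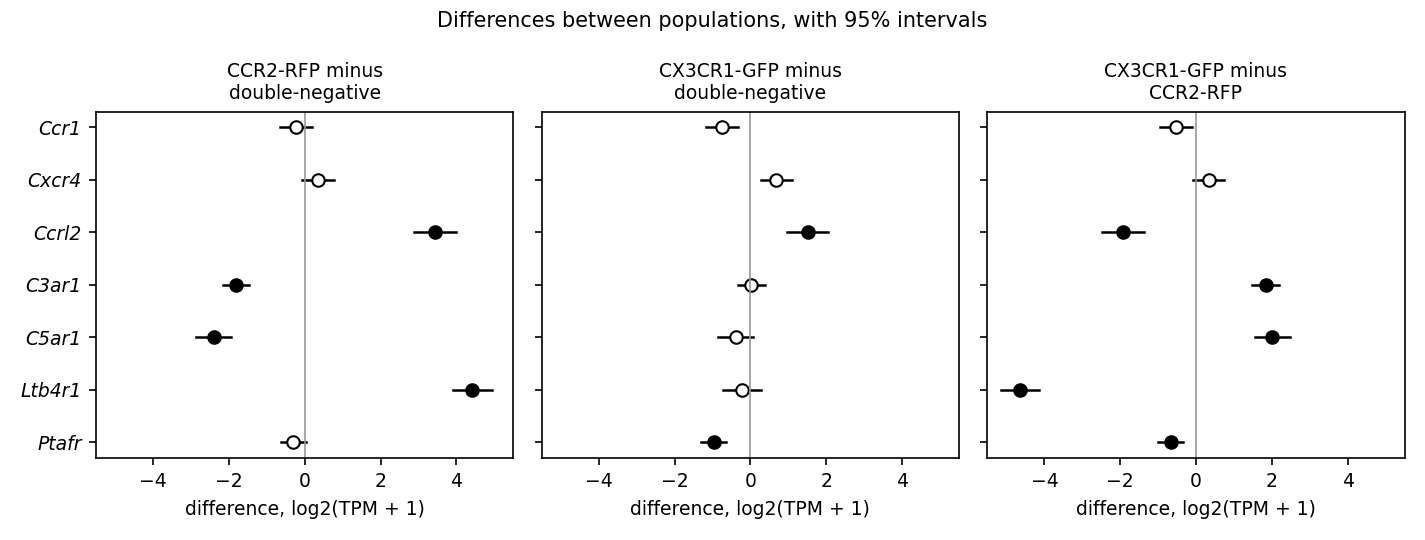
Log2 difference of each receptor in the 3 comparisons with its 95% interval from the limma fit, and a line at 0. Filled points are called at an adjusted p below 0.05; C3ar1 and C5ar1 lie left of 0 and Ltb4r1 and Ccrl2 right of it in CCR2-RFP against DN cells.

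Seen as a repertoire, the 9 receptors, the gate genes included, were most of the summed message of the 44 chemoattractant receptors considered, in every library. Of these 44, 9 described here and 35 others, 18 reached 1 TPM in at least 3 libraries. Below 1 TPM in every library were 25 of the 35 others, Cxcr2, Ccr7, Fpr1 and Ltb4r2 among them. The 44 summed to 606 ± 19.8 TPM in DN, 526 ± 1.10 TPM in CX3CR1-GFP and 436 ± 20.9 TPM in CCR2-RFP cells, and the 9 held between 79.2% and 88.7% of that sum in each library. C3ar1 and C5ar1 took 30.4% and 24.8% of the sum in DN cells and 35.7% and 21.6% in CX3CR1-GFP cells, but 12.0% and 6.46% in CCR2-RFP cells. There the gate gene Ccr2 held 24.6%, Ccrl2 6.77% and Ltb4r1 6.08%. Ptafr held 13.1%, 7.71% and 14.7%, Ccr1 11.2%, 7.54% and 13.2%, and Cxcr4 2.36%, 4.56% and 4.26%, in the order DN, CX3CR1-GFP and CCR2-RFP. Because the shares of a library add up, the gate gene alone lowers the share of every other receptor in CCR2-RFP cells.

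**Figure D3:**
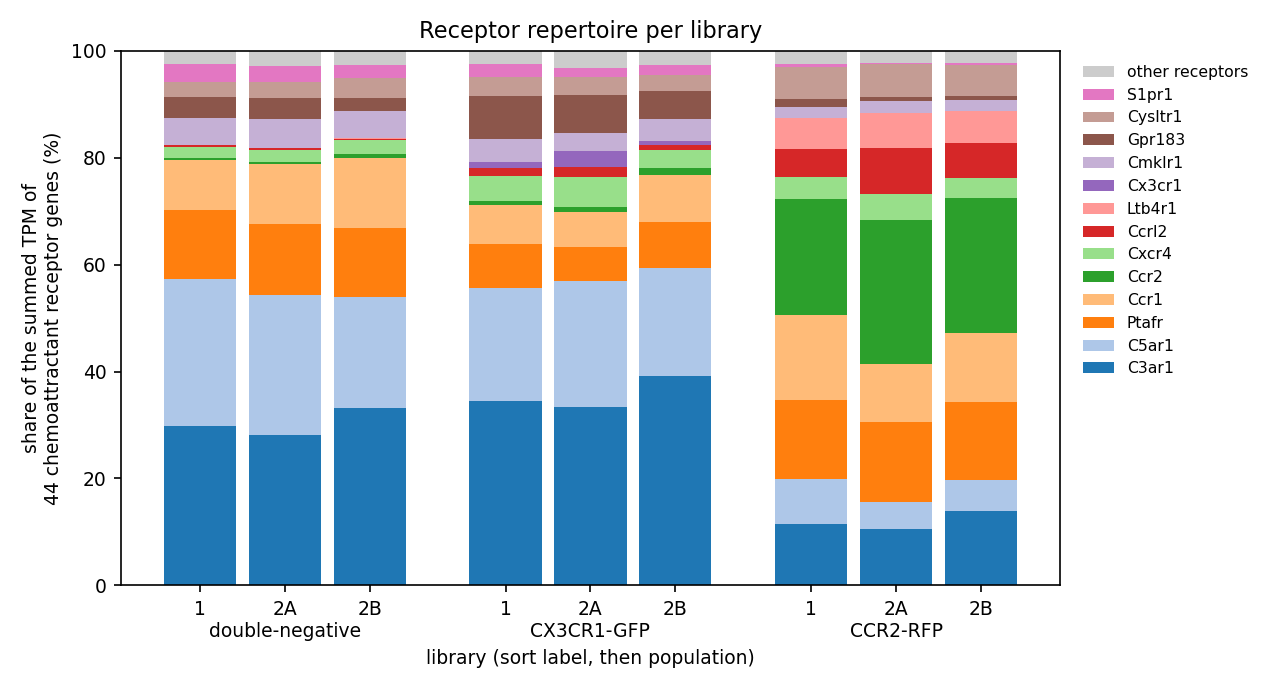
Share of the summed TPM of 44 chemoattractant receptor genes held by each gene, 1 bar per library, with genes outside the 13 named gathered as other receptors. The C3ar1 and C5ar1 bands take over 50% of each DN and CX3CR1-GFP bar and a much smaller part of each CCR2-RFP bar, where Ccr2, Ltb4r1 and Ccrl2 appear.

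The 9 other receptors considered that passed the filter gave 1 higher, 6 lower and 2 not passed in CCR2-RFP against DN cells, with a median log2 difference of -1.12 beside 0.09 over all genes. Of all genes, 14.9% were called higher and 9.88% lower in this comparison. Xcr1, a receptor of cross-presenting dendritic cells, was at 1.39 ± 0.209 TPM against nearly 0 (1.24, limma adjusted p = 0.00036), and passed the filter only through the CCR2-RFP libraries, where it is high. Cmklr1, the signalling chemerin receptor to which Ccrl2 presents, went the other way to Ccrl2, at 9.02 ± 0.0229 against 31.8 ± 1.34 TPM (-1.71, 1.88e-05). S1pr1, which guides leukocytes out of tissue along sphingosine 1-phosphate, was at 1.97 ± 0.998 against 17.6 ± 3.12 TPM (-2.70, 6.2e-05). Gpr183, the oxysterol receptor, was at 4.74 ± 1.81 against 20.7 ± 5.66 TPM (-1.93, 0.000521). S1pr2 (-0.85, 0.0185), Cxcr3 (-1.12, 0.0201) and Fpr2 (-1.33, 0.0281) were the other 3 called lower. Cysltr1 (0.39, 0.0728) and C5ar2 (-0.44, 0.1) did not pass, but C5ar2 was called lower under median-of-ratios scaling (-0.56, 0.0457) and with Siglece, Rn18s, mitochondrial and ribosomal protein genes left out of the total (-0.60, 0.0304), which makes 7 lower. Without both reporter-positive libraries of sort 2A, where muscle transcripts were high, 1 was higher and 4 lower, the calls of S1pr2 (adjusted p = 0.0613) and Cxcr3 (0.0671) being lost.

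Between CX3CR1-GFP and DN cells none of these 9 was called by limma, beside 2.77% of all genes. An unadjusted p below 0.05 was seen for 3, namely Cmklr1, Gpr183 and S1pr1. Cmklr1 came nearest, at 20.6 ± 2.66 against 31.8 ± 1.34 TPM (-0.61, adjusted p = 0.0556). Between CX3CR1-GFP and CCR2-RFP cells 5 were higher, Gpr183 (2.70, adjusted p = 6.61e-05), Cmklr1 (1.10, 0.000329), S1pr1 (1.95, 0.000595), S1pr2 (0.83, 0.02) and C5ar2 (0.53, 0.0492). Xcr1 (-1.20, 0.000501) and Cysltr1 (-0.55, 0.0178) were lower. Of all genes, 8.96% were called higher and 17.3% lower in this comparison. Under each of the 3 other scalings Cysltr1 lost that call, leaving 1 lower. Without both reporter-positive libraries of sort 2A, 3 were higher and 1 lower.

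**Figure D4:**
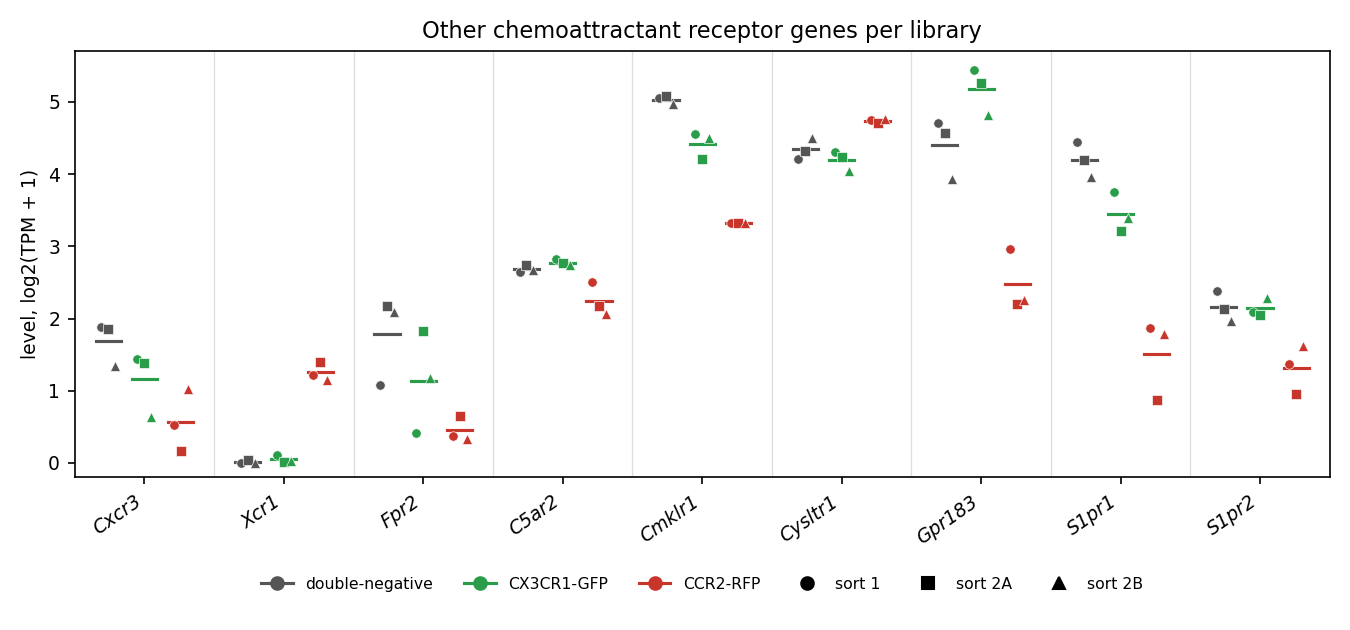
Level, as log2(TPM + 1), of the 9 other chemoattractant receptor genes that passed the filter in every library, with colours for the populations, marker shapes for the sorts and bars for means. S1pr1, Gpr183 and Cmklr1 sit lowest in the 3 CCR2-RFP libraries and Xcr1 and Cysltr1 highest.

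Several of these genes are neighbours. Ccr1, Ccr1l1, Ccr3 and Ccr2 follow each other on chromosome 9 between 123962124 and 124113557 (GRCm38), with Xcr1 at 123852315 to 123862029, Cxcr6 and Ccr9 before them. In CCR2-RFP against DN cells Ccr1 did not pass, while Xcr1 and the gate gene Ccr2 were higher, and Ccr3, Ccr1l1, Cxcr6 and Ccr9 stayed below 1 TPM in every library. Ccrl2 lies on the same chromosome far from this group.

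Genes for the ligands were read in the same libraries, and the part of other cells in their levels was not tested. All 3 Ccr2 ligand genes tested, Ccl2, Ccl7 and Ccl12, were lower in CCR2-RFP than in DN cells, beside 9.88% of all genes. Ccl12 was at 2.83 ± 2.29 against 29.0 ± 3.73 TPM (-3.22, limma adjusted p = 0.00167), Ccl7 at 22.7 ± 10.0 against 114 ± 7.07 TPM (-2.39, 0.000388) and Ccl2 at 56.1 ± 20.5 against 124 ± 12.5 TPM (-1.20, 0.0176). In CX3CR1-GFP against CCR2-RFP cells Ccl12 (4.25, 0.000313) and Ccl7 (1.72, 0.00319) were higher, while Ccl2 gave 0.88 (0.0634) and passed under all 3 other scalings. None of the 3 was called by limma between CX3CR1-GFP and DN cells, and 0 had an unadjusted p below 0.05.

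Of 5 Ccr1 ligand genes tested, 3 were higher and 1 lower in CCR2-RFP than in DN cells, beside 14.9% and 9.88% of all genes. In CX3CR1-GFP against DN cells 2 were higher and 2 lower, beside 1.16% and 1.61% of all genes. Ccl3 was at 24.6 ± 7.70, 141 ± 71.5 and 19.3 ± 5.15 TPM in DN, CX3CR1-GFP and CCR2-RFP cells, with 2.38 between CX3CR1-GFP and DN cells (limma adjusted p = 0.0111). Ccl4, a close relative of Ccl3, was 4.46 ± 1.67, 58.9 ± 49.7 and 22.8 ± 4.0 TPM, with 3.17 (0.00646) in that comparison and 2.15 (0.00771) in CCR2-RFP against DN cells. Ccl6 ran the other way, at 522 ± 102, 149 ± 49.2 and 1034 ± 132 TPM, lower in CX3CR1-GFP (-1.84, 0.00323) and higher in CCR2-RFP cells (0.995, 0.0112) than in DN cells, the latter not called under quantile normalization (0.74, 0.0544). Ccl9 went with it, at -0.995 (0.0111) and 0.92 (0.00222). The Cx3cr1 ligand gene Cx3cl1 did not reach 1 TPM in any library, and neither the Cxcr4 ligand gene Cxcl12, at 4.22 to 6.63 TPM in the population means, nor the chemerin gene Rarres2 was called in any comparison.

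Genes that make or break down the complement and lipid ligands also differed. Complement C3 itself was not called in any comparison, at 3.19 ± 0.878, 7.67 ± 7.75 and 2.37 ± 0.446 TPM in DN, CX3CR1-GFP and CCR2-RFP cells, and the C5 gene Hc stayed below 1 TPM. Cfb, factor B of the alternative pathway, was lower than in DN cells in both CX3CR1-GFP (-2.45, limma adjusted p = 0.00264) and CCR2-RFP cells (-2.49, 0.000205). Cfb reached 1 TPM only in the DN libraries, where it is high, and at 1.25 TPM in CCR2-RFP 2B. Its p-values are thus no independent support for these differences. Cfp, properdin, was lower in CX3CR1-GFP than in DN cells (-1.44, 0.00391) and than in CCR2-RFP cells (-2.00, 5.68e-05). For leukotriene B4, the genes of the activating protein Alox5ap (0.95, 0.000913) and of the final enzyme Lta4h (0.84, 0.013) were higher and that of 5-lipoxygenase, Alox5, lower (-0.93, 0.00493) in CCR2-RFP than in DN cells, where the receptor gene Ltb4r1 was highest. For platelet-activating factor, the synthetic enzyme gene Lpcat2 was higher in CX3CR1-GFP cells, where Ptafr was lowest, at 7.36 ± 4.26 against 0.396 ± 0.394 TPM in DN cells (2.50, 0.00606). Lpcat2 reached 1 TPM only in the CX3CR1-GFP libraries, where it is high, and at 1.19 TPM in CCR2-RFP 2A. Its p-value is thus no independent support for that difference. Pla2g7, the secreted hydrolase that inactivates platelet-activating factor, was lower in CCR2-RFP than in DN cells, at 26.6 ± 2.39 against 65.0 ± 1.90 TPM (-1.26, 4.78e-05).

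**Figure D5:**
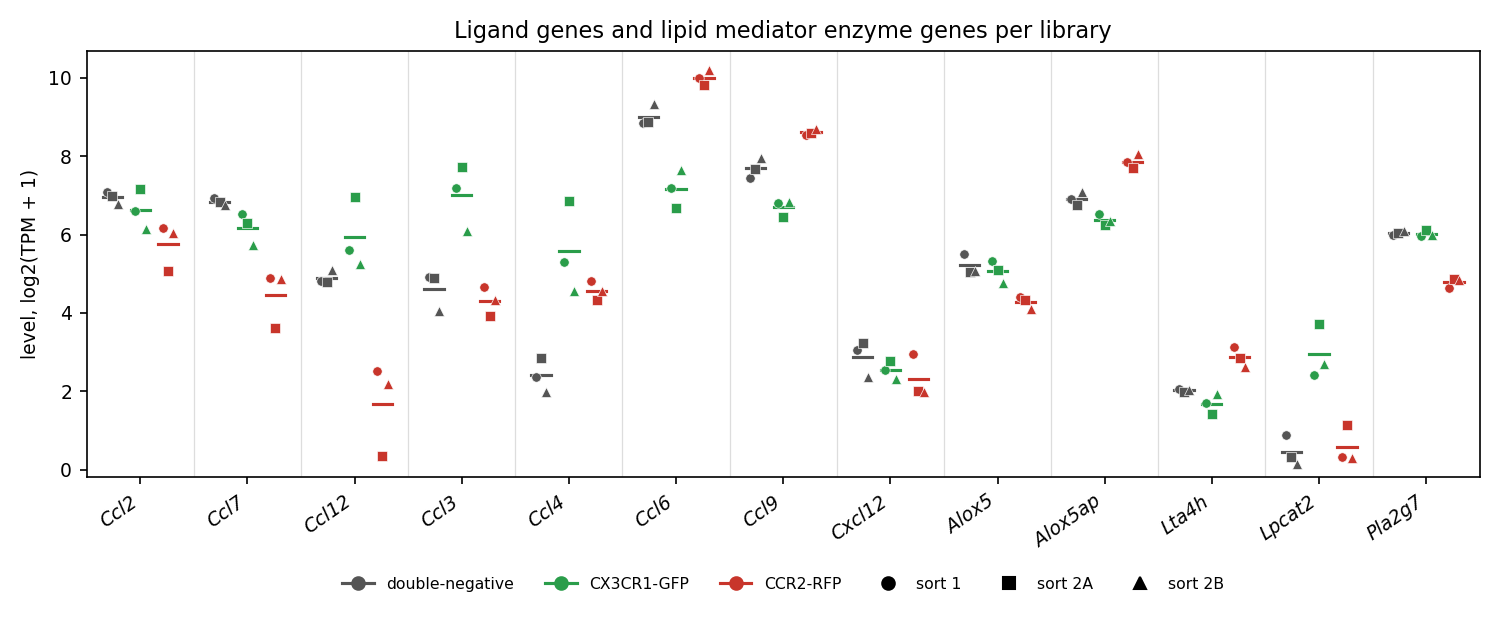
Level, as log2(TPM + 1), of genes for ligands of the receptors and for lipid mediator enzymes in every library, with colours for the populations, marker shapes for the sorts and bars for means. Ccl7 and Ccl12 sit lowest in CCR2-RFP libraries and Ccl2 has its lowest mean there with libraries that overlap those of CX3CR1-GFP cells, while Ccl6, Ccl9 and Alox5ap sit highest in them, and Ccl3, Ccl4 and Lpcat2 sit highest in CX3CR1-GFP means.

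Downstream of the receptors, 21 signalling genes gave 9 higher, 2 lower and 10 not passed in CCR2-RFP against DN cells, with a median log2 difference of 0.43 beside 0.09 over all genes. Of all genes, 14.9% were called higher and 9.88% lower there. Plcb2, the phospholipase C driven by Gi-coupled receptors, was at 8.48 ± 0.845 against 0.345 ± 0.157 TPM (2.82, limma adjusted p = 7.16e-06). Plcb2 was below 1 TPM in every DN library and passed the filter only through the reporter-positive libraries, where it is higher. Rac2, the leukocyte Rac GTPase, was at 50.2 ± 9.63 against 16.7 ± 1.43 TPM (1.52, 0.000343), its activator Dock2 at 79.6 ± 8.04 against 27.4 ± 7.09 TPM (1.53, 0.000354) and Rac1 at 153 ± 6.39 against 91.9 ± 5.16 TPM (0.73, 0.00379). The catalytic PI3 kinase gamma gene Pik3cg was lower (-0.94, 0.0157), while those of its adaptors Pik3r5 (1.25, 0.00651) and Pik3r6 (0.77, 0.00693) were higher. Of the same 21, 1 was called between CX3CR1-GFP and DN cells, beside 2.77% of all genes. It was Plcb2 (1.12, 0.0156), a call lost without the reporter-positive libraries of sort 2A (0.0599). In CX3CR1-GFP against CCR2-RFP cells 2 were higher and 9 lower, beside 8.96% and 17.3% of all genes. Rac2 (-2.36, 2.65e-05), Plcb2 (-1.70, 0.000161), Dock2 (-1.72, 0.000186) and Rac1 (-1.01, 0.00053) were among the 9. Under the 3 other scalings 6 to 7 were higher and 3 lower in the first of these comparisons, and 2 higher and 6 to 7 lower in the last.

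Among 14 genes of receptor and G protein shut-off, 5 were higher and 3 lower in CCR2-RFP than in DN cells, beside 14.9% and 9.88% of all genes. Rgs1, which speeds the turn-off of Gi proteins, was at 67.7 ± 13.4 against 4.34 ± 2.53 TPM (3.81, limma adjusted p = 4.21e-05) and Rgs2 at 76.8 ± 3.44 against 27.2 ± 4.97 TPM (1.48, 0.000159). Grk3, a receptor kinase, was at 2.19 ± 0.187 against 0.12 ± 0.0839 TPM (1.51, 0.000647), and Rgs10 was lower, at 31.1 ± 4.41 against 77.3 ± 12.8 TPM (-1.28, 0.000397). Grk3 was below 1 TPM in every DN library and passed the filter only through the reporter-positive libraries, where it is higher. In CX3CR1-GFP against DN cells 3 were higher and none lower, beside 1.16% and 1.61% of all genes. These were Rgs2 (1.29, 0.00386), Grk3 (1.53, 0.00521) and Rgs1 (1.64, 0.0476), the last not called without the reporter-positive libraries of sort 2A (0.118). In CX3CR1-GFP against CCR2-RFP cells 3 were higher and 6 lower, beside 8.96% and 17.3% of all genes. They were led by Rgs10 (1.11, 0.00111), Rgs14 (-1.21, 0.0012), Grk5 (-1.50, 0.00127) and Rgs1 (-2.18, 0.00175). Under the 3 other scalings only 3 of the 6 stayed called lower.

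The genes whose levels ran most alike to each receptor were taken from 2989 genes with at least 10 TPM in 1 population mean, by Pearson r of log2(TPM + 1) over the same 9 libraries. Because the libraries form 3 populations, a high r here mostly states that 2 genes share the order of the population means. C3ar1 ran closest to Myo5a (r = 0.993), Nrp1 and Prune2, and C5ar1 to Rab3il1 (0.994), Cd300ld3 and Lgmn. Ltb4r1 ran closest to Ndnf (0.997), Cd2 and Skint3, all of them low outside CCR2-RFP cells, and Ccrl2 to Acer3 (0.986), H2-DMa and Cd80. H2-DMa, which loads peptides onto MHC class II, had the same order of means as Ccrl2, 8.94, 34.3 and 165 TPM in DN, CX3CR1-GFP and CCR2-RFP cells. Ptafr ran closest to Gnpda1 (0.975), Fam89b and Fgfr1, Ccr1 to Sp100 (0.950), Gbp7 and Fcer1g, and Cxcr4 to Strn (0.945), Tnf and Axl. For the gate genes these were Cytip (0.997), Ezr and Sowahc with Ccr2 and Ccl3 (0.962) and Clec12a with Cx3cr1.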

How the data were processed

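The deposited values were TPM per gene symbol, 1 column per library. Per the submitters' processing notes, the authors used bcl2fastq 2.18, cutadapt 1.8.3, Salmon 0.11.3 and genome build mm10; the annotation and the strand were not given in the sources used. TPM keeps no counts, so depth is unknown, and the number of libraries limits precision. Paired reads of 75 bases came from 1 ng of RNA per library. The listed TPM summed to 324100 to 357100 in double-negative, 278600 to 301600 in CX3CR1-GFP and 356800 to 382800 in CCR2-RFP libraries. The listed sum was thus lower in CX3CR1-GFP libraries than in all others.

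Tests used limma 3.58.1 in R 4.3.3 on log2(TPM + 1) (mean per population, moderated variances with intensity trend, 2-sided, Benjamini-Hochberg); the code was tested on simulated data. p-values rest on 3 libraries per population. All 9 receptors and all other receptors that passed the filter are named; other lists name up to 4 called genes with the smallest p per comparison, with further genes added after their values were seen. Some genes of these lists are not reported here and were left out of the counts and sums of receptors. Receptors and lists were chosen with earlier results of these data known. The sort label was read as the animal; deviations from population means correlated at 0.03 to 0.21 within sorts (9 pairs) and -0.16 to 0.11 between sorts (18 pairs). Coordinates are GENCODE M21 (GRCm38, the assembly of mm10), 1-based. Alternatives covered pseudocounts, filters, scalings, the sort as a block, 2-population fits, no trend, a fold threshold and left-out libraries; leaving out CCR2-RFP libraries with the same genes tested, or both reporter-positive libraries of sort 2A, was chosen after seeing the data.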

Additional observations from a re-analysis of the deposited data

How the results depend on the processing

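Of 494 values of the 7 receptors outside the gate under alternative settings, 476 kept their direction and their side of the threshold, 5 lost a call, 11 gained one and 2 changed sign. Both sign changes were C3ar1 between CX3CR1-GFP and double-negative cells, -0.0295 without double-negative 2A and -0.0409 without CX3CR1-GFP 2B, never called, in a range of -0.0409 to 0.0748 over left-out libraries. The numbers of receptors called, 4, 2 and 5 in CCR2-RFP against double-negative, CX3CR1-GFP against double-negative and CX3CR1-GFP against CCR2-RFP cells, were also 4, 2 and 5 with the sort label as a replicate block, which changed no call. Leaving out 1 library gave 3 to 4, 2 to 3 and 4 to 6. Where a CCR2-RFP library was left out, Ltb4r1 no longer passed the filter; with the same genes tested it stayed called. Requiring a log2 difference of at least 1 left 1 receptor called between CX3CR1-GFP and double-negative cells, since Ptafr fell below that size by construction. The Ccr1 difference was called with a filter at 5 TPM between CX3CR1-GFP and double-negative (adjusted p = 0.0484) and CCR2-RFP cells (0.0499), where fewer genes were tested.

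Over all genes, the 281 called between CX3CR1-GFP and double-negative cells became 146 with no filter and 126 to 259 when 1 library was left out, and a log2 difference of at least 1 left 1463 of 2513 and 1514 of 2666 in the other comparisons. Scaling moved the median difference of CX3CR1-GFP against CCR2-RFP cells from -0.11 to between 0.01 and 0.13, so receptor differences of this size depend on it.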

Other observations

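Ratios between receptors do not depend on a factor that scales a whole library. C5ar1 over C5ar2, the second C5a receptor, was 27.8 ± 5.07 in double-negative, 19.5 ± 1.60 in CX3CR1-GFP and 7.40 ± 1.17 in CCR2-RFP cells (TPM ratio, SD, n = 3), with no overlap between populations. C3ar1 over C5ar1 was 1.25 ± 0.302, 1.66 ± 0.263 and 1.94 ± 0.558 and overlapped throughout. Neither ratio was tested, and 3 libraries against 3 allow no exact 2-sided permutation p below 0.1.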
